A study of Sus scrofa with 6 samples.

Results

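The glucocorticoid receptor gene *NR3C1* and 9 of its well-known target genes were examined in longissimus dorsi, a muscle of the back, from UCP1 KI and wild-type (WT) pigs. The 10 genes were listed by symbol, and were *NR3C1*, *FKBP5*, *TSC22D3*, *ZBTB16*, *KLF9*, *KLF15*, *DDIT4*, *SGK1*, *ERRFI1* and *DUSP1*. Of these, 9 were found among the 30476 Ensembl genes of the count table, and all 9 passed the filter on low counts. *TSC22D3*, which encodes the leucine zipper protein GILZ, was not matched by its identifier and is not analysed here. RNA-seq libraries came from 3 UCP1 KI pigs and 3 WT pigs, each 6 months old. The knock-in is described as adipocyte-specific, and the samples were whole muscle. The sources used here give neither the sex, litter, feeding state or sampling time of the pigs nor a measurement of cortisol, and p-values measure only the spread between these samples.

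The glucocorticoid receptor is a nuclear receptor that waits in the cytoplasm in a complex with HSP90 and its co-chaperones. When cortisol binds, the receptor moves to the nucleus and switches its target genes on or off. In skeletal muscle it is known for slowing growth and raising protein breakdown, partly through KLF15, FoxO transcription factors and the ubiquitin ligases that these control. Several targets, among them *FKBP5*, *ZBTB16* and *TSC22D3*, respond in many tissues and are often read as markers of receptor activity.

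The libraries held between 30220951 and 35066624 reads counted on genes. Levels are counts scaled by TMM factors to a library total of 1000000 (CPM). Fold changes are UCP1 KI over WT on the log2 scale, with their standard error (SE), from the quasi-likelihood test of edgeR. To be called, a gene needed p under 0.05 before adjustment and a log2 fold change beyond 0.5 in either direction, the cutoffs that the study applied. At these limits, 1097 of the 13402 genes tested were called, which is 8.19%, with 3.84% higher and 4.34% lower in UCP1 KI pigs. After Benjamini-Hochberg adjustment over all genes, edgeR left 0 genes under 0.05 (1100 had an unadjusted p under 0.05), whereas DESeq2 on the same genes left 127. Scaling by library size alone moved the median fold change over all genes, on the log2 scale, from -0.02 to 0.24, and the calls from 515 higher and 582 lower to 929 higher and 195 lower. Skeletal muscle markers were abundant in each pig, with a summed level of 58982 to 92638 CPM in UCP1 KI pigs and 74155 to 100429 CPM in WT pigs over the 7 of 14 listed markers found by symbol. In whole muscle, fewer cells of a type and less RNA per cell cannot be told apart.

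The listed genes did not move in 1 direction. Of the 9 genes tested, *DUSP1* and *SGK1* were called, both lower in UCP1 KI pigs, and 0 were called higher. With library size alone, *ZBTB16* and *KLF9* were called higher and *DUSP1* lower, and without UCP1 KI replicate 3, *ZBTB16* was called higher and *DUSP1* lower. With all 6 pigs and TMM factors, the calls were 2 of 9 genes, beside 8.19% called among all genes tested and 4.34% called lower. The log2 fold changes ran from -1.21 for *DUSP1* to 0.78 for *KLF9*, with 4 above 0, 5 below 0 and a median of -0.14, beside a median of -0.02 over all genes. The UCP1 KI and WT pigs did not overlap for 3 of the 9 genes, beside 15.3% of all genes tested. *ZBTB16* was the 1 on the higher side (7.59% of all genes) and *NR3C1* and *DUSP1* were the 2 on the lower side (7.69%).

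**Figure D1:**
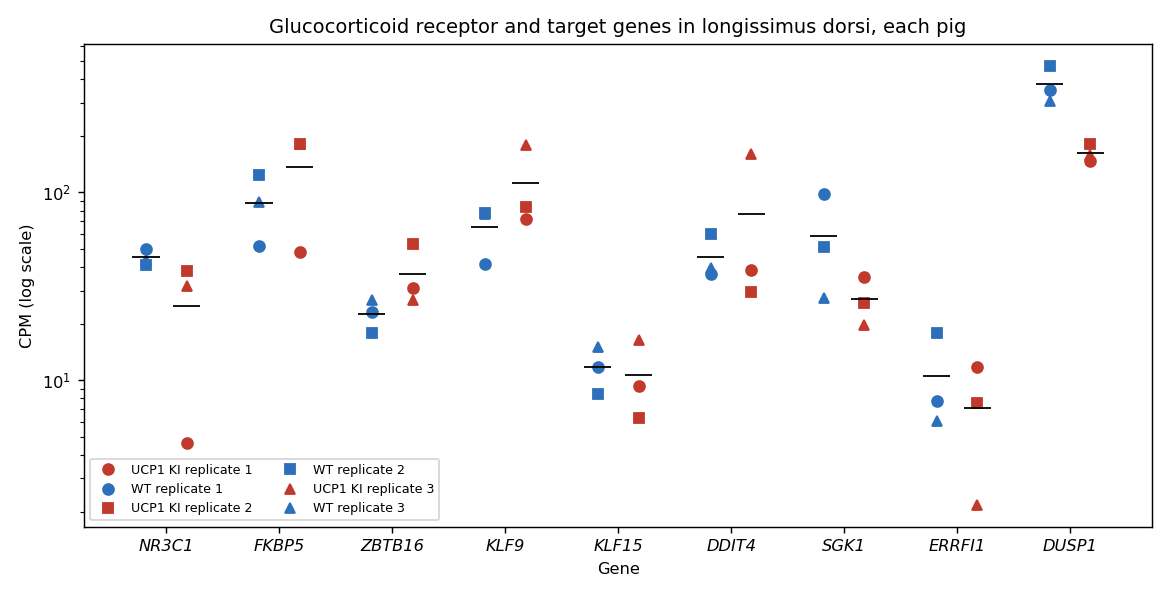
CPM on a log scale (vertical axis) of the 9 glucocorticoid receptor and target genes (horizontal axis) in each pig, with WT in blue on the left, UCP1 KI in red on the right, and the marker shape giving the replicate number. Horizontal bars are group means. *DUSP1* is lower in the 3 UCP1 KI pigs than in the 3 WT pigs, and *NR3C1* lies at 4.62 CPM in UCP1 KI replicate 1 against 31.7 CPM or more in the other pigs.

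*NR3C1* (ENSSSCG00000014401), the receptor itself, lies on chromosome 2 at 144822937 to 144956451 in the RefSeq annotation of Sscrofa11.1. Its level was 4.62, 38.0 and 31.7 CPM in UCP1 KI replicates 1 to 3 and 50.1, 41.3 and 43.8 CPM in WT replicates 1 to 3. Each UCP1 KI pig was thus below each WT pig, and UCP1 KI replicate 1 stood far below the other 5. The UCP1 KI mean was 24.8 ± 17.8 CPM and the WT mean 45.0 ± 4.52 CPM (both SD, n = 3), a log2 fold change of -0.86 ± 0.64 (SE) with an adjusted p of 0.729 from edgeR. With 3 pigs against 3, a two-sided exact permutation test gave p = 0.1, the smallest p that this design allows. Without UCP1 KI replicate 1 the log2 fold change was -0.37.

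The low value of *NR3C1* in UCP1 KI replicate 1 rested on 143 counts, for which the exact Poisson interval at 95% ran from 121 to 168 counts and covers counting error only. The other 5 libraries held 1130 to 1816 counts. On the log2(CPM + 1) scale the gap to the next lowest pig was 2.54. A gap at least this wide between the lowest and the second lowest pig occurred for 49 genes, 0.366% of those tested, and for 8 genes, *NR3C1* included, the pig concerned was UCP1 KI replicate 1. The total count of this library, 32660931, lay within the range of the others. Whether the low count came from the muscle or from the assignment of reads to genes was not tested.

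*FKBP5* (ENSSSCG00000001549; chromosome 7, 31441764 to 31550704) encodes a co-chaperone that lowers the affinity of the receptor for cortisol, and it is itself switched on by the receptor. It was measured at 48.3, 180.5 and 181 CPM in UCP1 KI replicates 1 to 3 and at 52.0, 124 and 88.7 CPM in WT replicates 1 to 3. UCP1 KI replicates 2 and 3 were the highest of the 6 pigs. UCP1 KI replicate 1, the pig with the low *NR3C1*, was the lowest. WT replicate 1, the pig with the highest *NR3C1*, was almost as low. The log2 fold change of 0.63 ± 0.53 (SE) did not reach the limits (adjusted p = 0.764 by edgeR). Without UCP1 KI replicate 1 it was 1.04 with an unadjusted p of 0.0366, past both limits.

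Among the transcription factors, *ZBTB16* (ENSSSCG00000030095; chromosome 9, 41639536 to 41839254), which encodes the zinc finger protein PLZF, was at 30.8, 53.1 and 26.8 CPM in UCP1 KI replicates 1 to 3. In WT replicates 1 to 3 it was at 23.1, 17.9 and 26.6 CPM. The groups did not overlap, although UCP1 KI replicate 3 and WT replicate 3 were almost level. Its log2 fold change of 0.71 ± 0.32 (SE) had an unadjusted p of 0.0579 from edgeR, just outside the limit, and an adjusted p of 0.611. It was past both limits without UCP1 KI replicate 3 (0.89), with library size alone (0.97) and with all genes that had any count (0.73), whereas without UCP1 KI replicate 2, the highest pig, it was 0.35.

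*KLF9* (ENSSSCG00000021646; chromosome 1, 223723613 to 223747661), a Krüppel-like factor that the receptor induces, was at 72.0, 83.5 and 179.8 CPM in UCP1 KI replicates 1 to 3 and at 41.3, 77.6 and 76.4 CPM in WT replicates 1 to 3. UCP1 KI replicate 3 was the highest pig by a gap of 1.10 on the log2(CPM + 1) scale, and the other 5 pigs overlapped between the groups. The log2 fold change was 0.78 ± 0.42 (SE), at an edgeR-adjusted p of 0.654, and 0.26 without UCP1 KI replicate 3. With library size alone it was 1.11 and past both limits (unadjusted p = 0.0290 by edgeR). *KLF15* (ENSSSCG00000036742; chromosome 7, 53877813 to 53890558), which drives amino acid breakdown in muscle, was at 9.31, 6.28 and 16.5 CPM in UCP1 KI replicates 1 to 3 and 11.8, 8.44 and 15.1 CPM in WT replicates 1 to 3. Its log2 fold change of -0.14 ± 0.40 (SE; adjusted p = 0.933 by edgeR) turned positive, to 0.10, with library size alone.

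Next came the regulators of growth signalling. *DDIT4* (ENSSSCG00000031888; chromosome 14, 75117708 to 75119907) encodes REDD1, an inhibitor of the mTORC1 pathway. Its level was 38.6, 29.6 and 161 CPM in UCP1 KI replicates 1 to 3 and 36.8, 59.9 and 39.4 CPM in WT replicates 1 to 3. The high UCP1 KI mean of 76.4 ± 73.4 CPM, beside a WT mean of 45.4 ± 12.7 CPM (both SD, n = 3), came from replicate 3 alone. The log2 fold change was 0.75 ± 0.62 (SE), at an edgeR-adjusted p of 0.762, and it was -0.41 without that pig.

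*SGK1* (ENSSSCG00000021443; chromosome 1, 29625786 to 29753619), a kinase related to AKT that glucocorticoids and mineralocorticoids both induce, was lower in UCP1 KI pigs. It was measured at 35.3, 25.7 and 19.8 CPM in UCP1 KI replicates 1 to 3 and at 98.0, 51.0 and 27.6 CPM in WT replicates 1 to 3. The groups overlapped, since WT replicate 3 fell between UCP1 KI replicates 1 and 2. The log2 fold change of -1.13 ± 0.46 (SE) had an unadjusted p of 0.0422 and an adjusted p of 0.603 from edgeR, and the exact permutation test, two-sided, gave p = 0.2. This call was lost on omitting replicate 2 (-1.11) or 3 (-0.95) of the UCP1 KI pigs or replicate 1 (-0.55) or 2 (-1.22) of the WT pigs, and with library size alone (-0.96).

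*ERRFI1* (ENSSSCG00000035774; chromosome 6, 68667651 to 68682629), an inhibitor of the EGF receptor, was at 11.7, 7.57 and 2.17 CPM in UCP1 KI replicates 1 to 3 and 7.72, 17.9 and 6.07 CPM in WT replicates 1 to 3. The pigs of both groups were interspersed, with UCP1 KI replicate 3 the lowest. Its log2 fold change of -0.56 ± 0.63 (SE; adjusted p = 0.825 by edgeR) was 0.05 without WT replicate 2.

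*DUSP1* (ENSSSCG00000016991; chromosome 16, 51457924 to 51461095) had the clearest difference of the listed genes. It encodes a phosphatase that inactivates MAP kinases and is induced both by glucocorticoids and, as an immediate early gene, by growth factors and stress. *DUSP1* was measured at 147, 182 and 158 CPM in UCP1 KI replicates 1 to 3 and at 352, 471 and 305 CPM in WT replicates 1 to 3, so each UCP1 KI pig was well below each WT pig. The UCP1 KI mean was 162 ± 17.7 CPM and the WT mean 376 ± 85.7 CPM (both SD, n = 3), which is 2.32-fold lower in UCP1 KI pigs. The log2 fold change of -1.21 ± 0.27 (SE) had an unadjusted p of 0.00217 and an adjusted p of 0.481 from edgeR, and an adjusted p of 0.00409 from DESeq2. Over the 6 fits that each omit 1 pig it ran from -1.34 to -1.02, past both limits every time, and was -0.92 with library size alone.

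**Figure D2:**
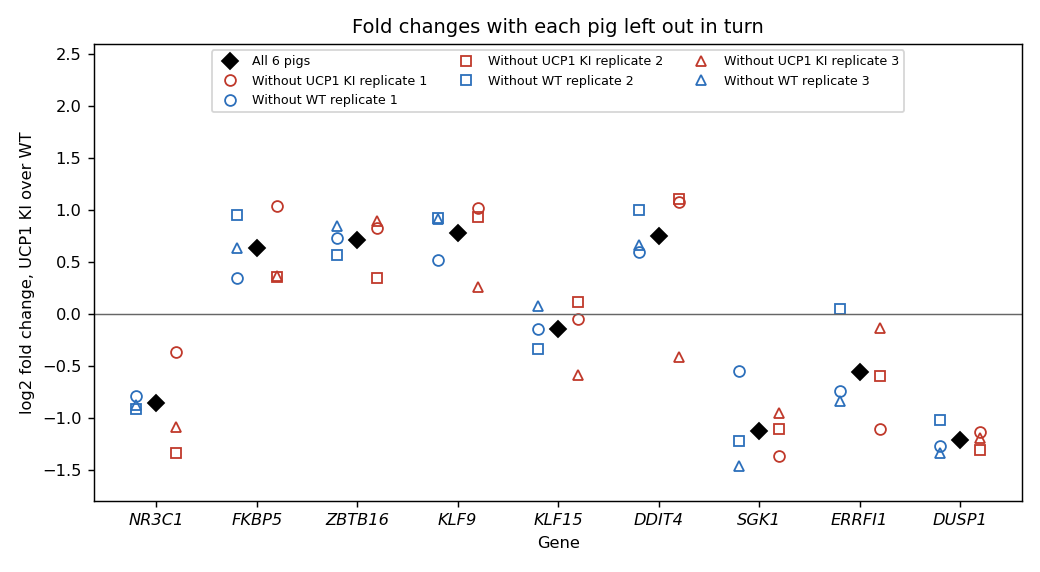
Log2 fold change of UCP1 KI over WT (vertical axis) for each of the 9 genes (horizontal axis), with all 6 pigs (black diamonds) and with 1 UCP1 KI pig (open red) or 1 WT pig (open blue) left out. *DUSP1* keeps to between -1.34 and -1.02, while *DDIT4* moves to -0.41 without UCP1 KI replicate 3 and *NR3C1* to -0.37 without UCP1 KI replicate 1.

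Since *DUSP1* is also an immediate early gene, a list of 15 other immediate early genes was set beside it. Of the 14 tested, 12 had a log2 fold change below 0, 4 of these were called lower and 0 higher, beside 4.34% called lower among all genes, and the median was -0.48. The orphan nuclear receptor gene *NR4A1* (ENSSSCG00000031321) was at 118, 100.4 and 138 CPM in UCP1 KI pigs and 248, 198 and 366 CPM in WT pigs, for a log2 fold change of -1.19 ± 0.30 (SE). *FOSB* (ENSSSCG00000031616), a subunit of the AP-1 factor, had a log2 fold change of -1.48 ± 0.40 (SE), and *IER2* (ENSSSCG00000013753) one of -1.04 ± 0.29 (SE). These 3 genes did not overlap between the groups, and each was called with any 1 pig left out, whereas the other called gene, *EGR2*, was called in 2 of the 6 such fits. The summed level of the list was 951 to 1601 CPM in UCP1 KI pigs and 1602 to 1828 CPM in WT pigs, ranges that all but touched, and its part in the difference of *DUSP1* was not tested.

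The genes that hold, help and feed the receptor were listed as 22 chaperones, coregulators and steroid-handling genes, of which 20 could be tested. Only *HSP90AB1* was called, higher in UCP1 KI pigs, 1 of the 20 beside 8.19% of all genes. The median log2 fold change of the list was 0.20, with 14 genes above 0 and 6 below 0. *HSP90AB1* (ENSSSCG00000001701), the constitutive HSP90 chaperone, was at 356, 701 and 289 CPM in UCP1 KI replicates 1 to 3 and 142, 129.7 and 226 CPM in WT replicates 1 to 3. All 3 UCP1 KI pigs were above all 3 WT pigs, with a log2 fold change of 1.44 ± 0.41 (SE, unadjusted p = 0.00883, adjusted p = 0.583 from edgeR). Without UCP1 KI replicate 2 it was 0.96 and still called. *HSP90AA1*, the inducible form, was not matched and is not analysed here.

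*FKBP4* (ENSSSCG00000000743), the co-chaperone that favours transport of the receptor to the nucleus and is the counterpart of *FKBP5*, was at 264, 355 and 145 CPM in UCP1 KI pigs and 80.5, 101 and 195 CPM in WT pigs. WT replicate 3 was above UCP1 KI replicate 3, and the log2 fold change of 1.02 ± 0.45 (SE) had an unadjusted p of 0.0526 from edgeR. *FKBP4* was past both limits with DESeq2, with either other filter on low counts, with library size alone (1.29), and on omitting replicate 3 of UCP1 KI (1.31) or of WT (1.49). *NR3C2* (ENSSSCG00000037766), the mineralocorticoid receptor, which also binds cortisol, was at 2.91, 2.92 and 3.13 CPM in UCP1 KI pigs and 4.80, 4.42 and 3.67 CPM in WT pigs. It did not overlap between the groups, and its log2 fold change of -0.52 ± 0.28 (SE) did not pass the p limit (unadjusted p = 0.0951 from edgeR). *HSD11B1* (ENSSSCG00000015616), the enzyme that regenerates cortisol inside cells, had a log2 fold change of 0.30 ± 0.26 (SE) with overlapping groups, whose means were 22.5 ± 3.79 CPM for UCP1 KI and 18.3 ± 4.05 CPM for WT (both SD, n = 3).

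A further 32 genes known as glucocorticoid targets in muscle or in many tissues were examined as well. Of the 29 tested, 8 were called higher in UCP1 KI pigs and 0 lower, which is 27.6%, beside 3.84% called higher among all genes tested. These were *CEBPB*, *CEBPD*, *FOXO1*, *FOXO3*, *FBXO32*, *TRIM63*, *CDKN1A* and *PFKFB3*. The whole list had a median log2 fold change of 0.24, with 17 genes above 0 and 12 below 0, and 6 genes, all higher in UCP1 KI pigs, did not overlap between the groups, beside 7.59% of all genes. *MSTN*, which encodes the growth inhibitor myostatin, had a log2 fold change of -1.43 ± 0.63 (SE) and was called lower with DESeq2, with all genes that had any count, and on omitting replicate 3 of UCP1 KI or replicate 1 of WT. *CITED2* was also called lower in the last of these, and *ANGPTL4* on omitting UCP1 KI replicate 1. With the replicate number as a block, *MSTN* (-1.44) and *ANXA1* (-0.67) were called lower. These 4 genes were singled out after their values were seen. The other targets called only under an alternative, *PIK3R1*, *SESN1*, *EIF4EBP1*, *TXNIP* and *PER1*, were called higher. The list was chosen with earlier results of these data known, that of *CEBPB* among them. The share called is therefore no test of the list, and its genes also respond to fasting, inflammation and other stresses. Without WT replicate 2, the number called was 4.

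**Figure D3:**
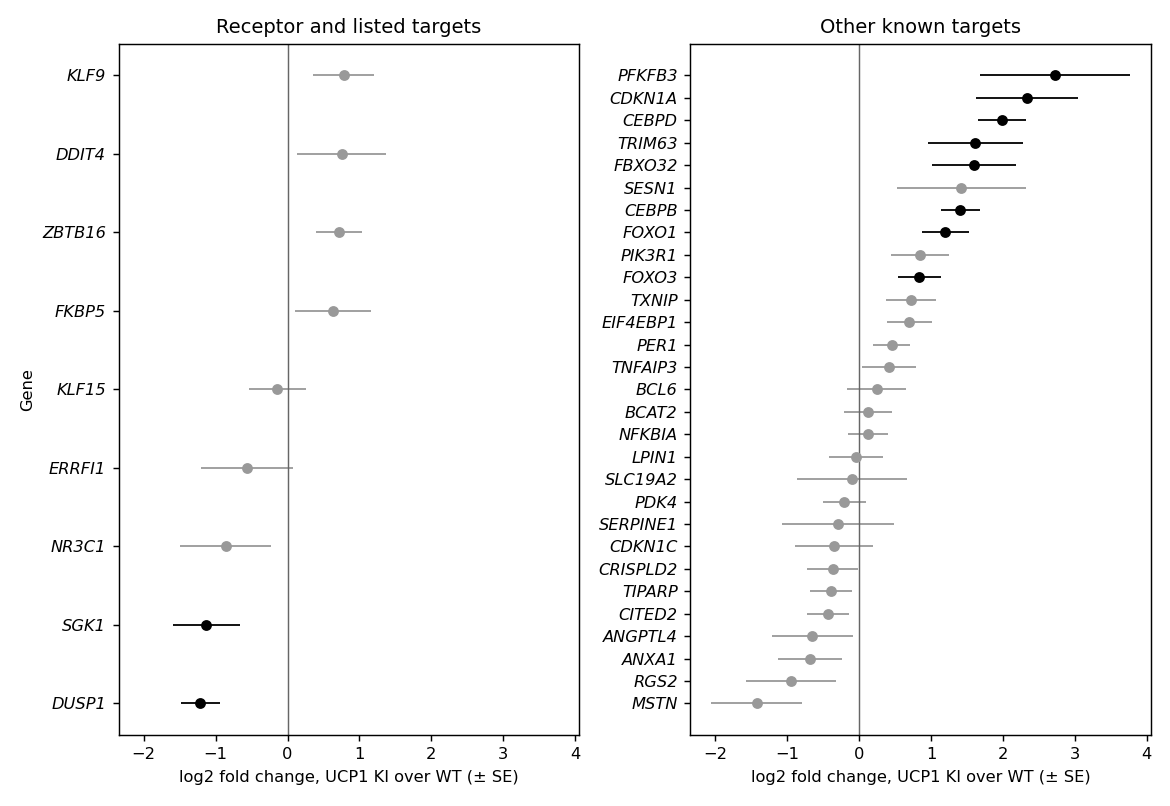
Log2 fold changes of UCP1 KI over WT with their standard errors (horizontal axis) for the 9 listed genes (left) and the 29 other known targets that could be tested (right), one gene per row. Black points were called and grey points were not. The called genes lie below 0 on the left (*DUSP1*, *SGK1*) and above 0 on the right (8 genes).

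The C/EBP factors had the smallest p values among these targets. *CEBPD* (ENSSSCG00000032367), a transcription factor induced early by glucocorticoids and by inflammation, was at 110.0, 91.2 and 118 CPM in UCP1 KI replicates 1 to 3 and 17.6, 39.0 and 24.1 CPM in WT replicates 1 to 3. The lowest UCP1 KI pig was thus far above the highest WT pig, and the log2 fold change of 1.98 ± 0.33 (SE) corresponds to 3.96-fold. It had an unadjusted p of 0.000398 and an adjusted p of 0.280 from edgeR, an adjusted p of 5.02e-05 from DESeq2, and ran from 1.75 to 2.35 over the fits that omit 1 pig. *CEBPB* (ENSSSCG00000034207), its relative, had a log2 fold change of 1.41 ± 0.27 (SE) and was likewise called with any 1 pig left out.

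The FoxO factors, which the receptor induces in muscle and which switch on the atrophy ligases, were both called. *FOXO1* (ENSSSCG00000009370) was at 46.3, 68.0 and 85.6 CPM in UCP1 KI replicates 1 to 3 and 21.1, 27.8 and 38.4 CPM in WT replicates 1 to 3, for a log2 fold change of 1.20 ± 0.33 (SE). *FOXO3* (ENSSSCG00000004387) was at 48.3, 84.0 and 63.3 CPM in UCP1 KI pigs and 35.6, 28.2 and 45.8 CPM in WT pigs, for a log2 fold change of 0.84 ± 0.30 (SE). Neither gene overlapped between the groups. *FOXO1* was called with any 1 pig left out, whereas *FOXO3* was not on omitting replicate 2 of the UCP1 KI pigs (0.60) or replicate 1 (0.81) or 2 (0.68) of the WT pigs.

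Of the ubiquitin ligases of muscle atrophy, *FBXO32* (ENSSSCG00000005981), which encodes atrogin-1, was at 215, 329.6 and 1058 CPM in UCP1 KI replicates 1 to 3 and 135, 166 and 228 CPM in WT replicates 1 to 3. *TRIM63* (ENSSSCG00000027684), which encodes MuRF1, was at 369, 371 and 1734 CPM against 192, 232 and 386 CPM. UCP1 KI replicate 3 stood above all other pigs for both genes. UCP1 KI replicate 1 lay below WT replicate 3 for both, and so did UCP1 KI replicate 2 for *TRIM63*. The log2 fold changes of 1.60 ± 0.59 (SE) and 1.61 ± 0.66 (SE) were called with all 6 pigs and were 0.62 and 0.46, not called, without UCP1 KI replicate 3. Both calls were also lost without WT replicate 1 (1.42 and 1.40) and without WT replicate 2 (1.55 and 1.51).

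*CDKN1A* (ENSSSCG00000001565), which encodes the cell cycle inhibitor p21, was at 162, 294 and 1026 CPM in UCP1 KI replicates 1 to 3 and 59.8, 84.6 and 149 CPM in WT replicates 1 to 3, with no overlap. Its log2 fold change of 2.33 ± 0.71 (SE) was called with any 1 pig left out and was 1.22 without UCP1 KI replicate 3. *PFKFB3* (ENSSSCG00000011133), an enzyme that stimulates glycolysis, ranged from 19.7 to 589 CPM in UCP1 KI pigs and from 16.5 to 60.1 CPM in WT pigs. It was called with all pigs at 2.72 ± 1.04 (SE), and lost the call without UCP1 KI replicate 3 (1.45) or without any 1 of the WT pigs (2.33 to 3.12). The call was also lost with the replicate number as a block (2.17).

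*PER1* and *PDK4*, both direct targets in many tissues, were not called. *PER1* (ENSSSCG00000017983), a clock gene, was at 91.0, 112 and 94.2 CPM in UCP1 KI replicates 1 to 3 and 93.4, 63.3 and 60.7 CPM in WT replicates 1 to 3, and WT replicate 1 was level with the UCP1 KI pigs. The log2 fold change of 0.45 ± 0.26 (SE) was 0.67 and called without WT replicate 1. *PDK4* (ENSSSCG00000015334), a kinase that shuts off pyruvate dehydrogenase during fasting, had a UCP1 KI mean of 963 ± 73.5 CPM and a WT mean of 1112 ± 289 CPM (both SD, n = 3). Its log2 fold change of -0.21 ± 0.30 (SE) turned to 0.06 with library size alone.

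**Figure D4:**
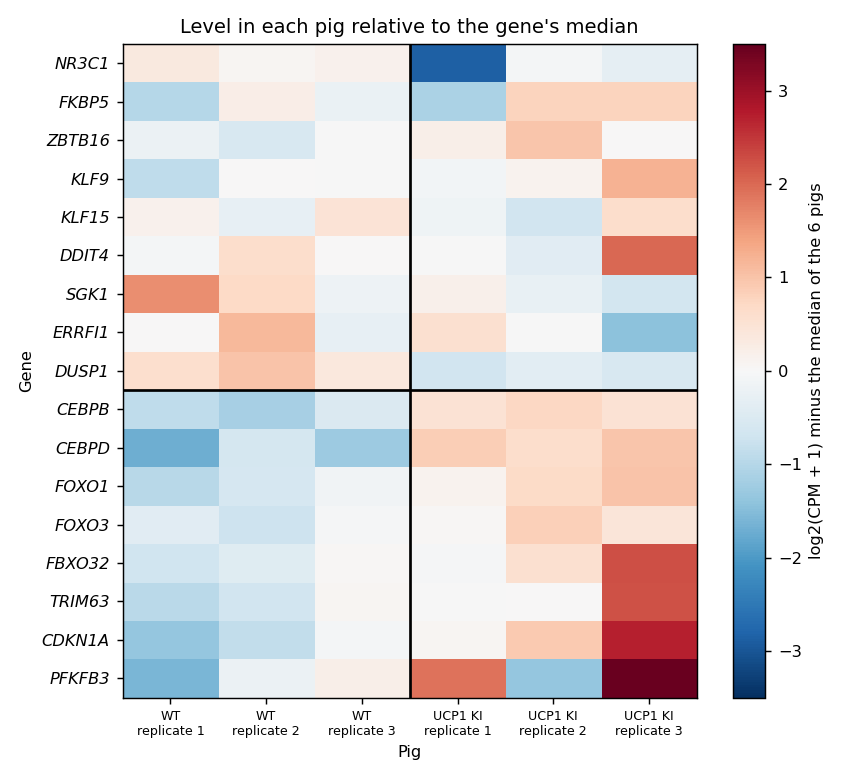
Level of each gene in each pig (columns) as log2(CPM + 1) minus the median of the 6 pigs (colour scale), for the 9 listed genes (above the line) and the 8 other targets called higher in UCP1 KI pigs (below it). *NR3C1* is darkest blue in UCP1 KI replicate 1, *DDIT4*, *FBXO32*, *TRIM63*, *CDKN1A* and *PFKFB3* are darkest red in UCP1 KI replicate 3, and *DUSP1* runs opposite to *CEBPB* and *CEBPD*.

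A single pig thus carried much of the level of several targets. UCP1 KI replicate 3 was the highest of the 6 pigs for 4 of the 9 listed genes (*FKBP5*, *KLF9*, *KLF15* and *DDIT4*) and for 10 of the 29 other targets, beside 19.2% of all genes tested. For *FKBP5* and *KLF15* its lead was small, at 0.0028 and 0.12 on the log2(CPM + 1) scale. For *TRIM63* its gap to the next pig on the log2(CPM + 1) scale was 2.17, reached or passed at the high end by 17 genes in any pig. The gap was 1.68 for *FBXO32*, 1.80 for *CDKN1A* and 1.41 for *DDIT4*, and gaps as wide as the last were found for 120 genes, 0.895% of those tested. The same pig was the lowest for *SGK1* and *ERRFI1*, 2 of the 9, and for 8 of the 29 other targets, beside 17.3% of all genes. WT replicate 1 was the lowest for 12 of the 29 other targets, beside 19.4% of all genes. UCP1 KI replicate 1 was the lowest for *NR3C1*, *FKBP5* and *DUSP1*, 3 of the 9 beside 12.8% of all genes.

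Clock genes were listed as well, since cortisol follows the time of day and several targets are clock-controlled. Of the 16 tested, 1 was called higher and 2 lower, beside 3.84% and 4.34% of all genes, and the median log2 fold change was 0.17. Their summed level was 459.6 to 494 CPM in UCP1 KI pigs and 374 to 393 CPM in WT pigs, so that the groups lay apart, and its part in the differences of the targets was not tested. *CRY1* (ENSSSCG00000000164), a clock repressor that also binds the receptor, was at 8.05, 6.45 and 9.19 CPM in UCP1 KI pigs and 12.9, 15.0 and 18.4 CPM in WT pigs, for a log2 fold change of -0.97 ± 0.26 (SE) that was called with any 1 pig left out and not with library size alone (-0.70). *PER2* (ENSSSCG00000016338) had a log2 fold change of -1.11 ± 0.46 (SE) and *RORA* (ENSSSCG00000004576) one of 0.76 ± 0.31 (SE), and both lost their call on omitting UCP1 KI replicate 2 or either of WT replicates 1 and 2 (*PER2* at -1.06, -0.60 and -1.22, *RORA* at 0.45, 0.71 and 0.70). *PER2* also lost it without UCP1 KI replicate 3 (-0.88) and with library size alone (-0.96), and *RORA* with the replicate number as a block (0.71).

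Of the summed markers of other cell types, those of fibroblasts and red blood cells separated the groups. The summed level of 9 fibroblast markers was 269 to 461 CPM in UCP1 KI pigs and 763 to 1230 CPM in WT pigs, with 4 of the 9 called lower, beside 4.34% of all genes. The collagen genes *COL1A1*, *COL1A2* and *COL3A1* had log2 fold changes of -1.86, -1.70 and -1.57, whereas those of *PDGFRA* (-0.08), *FBLN1* (0.10) and *DPT* (0.17) were near 0, 6 genes named after their values were seen. Sums over 4 red blood cell markers were 11.6 to 76.2 CPM and 105 to 180.4 CPM, with 1 of the 3 tested called lower. Leukocyte markers overlapped at 43.9 to 186 CPM and 42.6 to 109 CPM, although 12 of the 12 tested had a log2 fold change above 0 and 3 were called higher, beside 3.84% of all genes, while lysozyme (*LYZ*) was at 0 in all pigs. UCP1 KI replicate 2 was the highest pig for the 3 called, *CD2*, *CD3E* and *ITGAM*, and without it none of them was called (1.52, 0.95 and 1.22 on the log2 scale). Of the 6 fits that each omit 1 pig, 4 called *CD2*, 2 *CD3E* and 3 *ITGAM*, and of the lower calls 1 called the fibroblast marker *LUM* and 2 the red blood cell marker *HBM*. Adipocyte markers were at 86.9 to 257 CPM and 101 to 382 CPM, with 6 of the 7 tested below 0 and *LIPE* (2.18-fold) called higher. Endothelial markers were at 313 to 567 CPM and 278 to 529 CPM, with *TEK* (2.30-fold) called higher of the 6 tested. Schwann cell markers, at 78.7 to 88.1 CPM and 72.9 to 96.2 CPM, had 0 calls. The part of these cell types in the differences of *DUSP1*, *SGK1* and the other targets was not tested.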

How the data were processed

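RNA from longissimus dorsi of 3 UCP1 KI and 3 WT pigs was sequenced as paired-end mRNA libraries. The authors trimmed the reads with Trimmomatic 0.36, mapped them with HISAT2 2.0 and deposited raw counts per Ensembl gene, with no normalization. The submitters' processing notes name the build Sscrofa11.1, and the authors computed expression values with StringTie 1.3.3b. The program behind the deposited counts, the annotation release and the strand are not given in the sources used here. Of the identifiers, 14864 had a symbol in the Ensembl name table for the pig, and positions are those of the RefSeq gene with the same symbol.

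The counts went into edgeR 4.0.16 (R 4.3.3), using filterByExpr, TMM factors and a quasi-likelihood F test with genotype as the only term, two-sided, with Benjamini-Hochberg adjustment. The standard error is the log2 fold change divided by the square root of F. Exact permutation tests used log2(CPM + 1). The code was tested on simulated counts. Alternatives were DESeq2 1.42.0, other factors and filters, a replicate block and leaving out each pig. The listed genes and all gene lists were chosen with earlier results of these data known. All listed genes were named, with 9 fixed pathway genes (1 was not matched), each other called pathway gene, up to 3 called immediate early and clock genes with the smallest p, and the 5 genes nearest to *FKBP5*.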

Additional observations from a re-analysis of the deposited data

How the results depend on the processing

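With p values adjusted over all genes tested, edgeR called 0 genes in all, 0 listed genes, 0 receptor machinery genes and 0 other targets, and DESeq2 called 127, 1 (*DUSP1*), 0 and 3 (*CEBPB*, *CEBPD* and *CDKN1A*). With each pig left out in turn, the number called was 678 to 1541 over all genes, 1 to 3 among the listed genes, 1 to 5 in the receptor machinery and 4 to 12 among the other targets, and the lowest counts over all genes came on omitting replicate 2 of either group (678 for UCP1 KI, 718 for WT). Among the listed genes, 1 was called on omitting UCP1 KI replicate 2 or either of WT replicates 1 and 2. The receptor machinery count was 4 with library size alone, 2 with all genes with any count, 2 with at least 10 counts in every pig and 2 with DESeq2, and on omitting replicate 3 it was 3 for UCP1 KI and 5 for WT. The sign turned with library size alone for *KLF15* (0.10) and *PDK4* (0.059), and on omitting 1 pig for *KLF15* (-0.59 to 0.11, above 0 without replicate 2 of UCP1 KI or replicate 3 of WT), *DDIT4* (-0.41 to 1.11, below 0 without UCP1 KI replicate 3), *ERRFI1* (-1.11 to 0.048, above 0 without WT replicate 2) and *PDK4* (-0.37 to 0.0094, above 0 without WT replicate 3). The cause was not tested. Over 29 named genes and 12 alternatives each, 300 values kept their direction and side of the limits, 29 lost a call, 12 gained one and 7 turned. Deviations of same-numbered pigs correlated at 0.00, 0.09 and 0.28, the last being the highest of all pairs, while UCP1 KI replicate 1 correlated best with WT replicate 2 (0.13). Whether the replicate numbers pair the pigs was not tested. With the replicate block the counts were 1114 over all genes, 2, 1 and 11 (9 higher, 2 lower), and *PFKFB3* (2.17) and *RORA* (0.71) were no longer called. *HSD11B2*, at 0 to 42 counts (0 to 1.11 CPM), did not pass the filter and was not tested.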

Other observations

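The other 7 genes that lay as far below the remaining pigs in UCP1 KI replicate 1 as *NR3C1* did were looked up after the values were seen. *DAP3* was counted 15 times in that pig and 440 to 848 times in the others, *FBXO42* 19 times against 325 to 730, *CNOT6L* 24 times against 340 to 747, and *INTS15* 57 times against 481 to 1158. *GOLPH3L* had 95 counts against 762 to 1153, *EFR3A* 100 counts against 1055 to 1783, and 1 gene without a symbol had 0 counts against 1264 to 2192. No account of these low values was tested.

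The genes whose standardised profile over the 6 pigs lay nearest to that of *FKBP5* by root mean square distance were *PPM1D* (0.105), *UPF2* (0.131), *MED30* (0.165), *NAA25* (0.223) and *SETD1A* (0.270). Their log2 fold changes ran from 0.08 to 0.30, and 0 of the 5 were called (smallest unadjusted p = 0.516 from edgeR). Of the listed genes *KLF9* was nearest to *FKBP5*, at rank 405 of 11302 genes with a symbol, and *SGK1* was farthest, at rank 10687. This is a description over 6 pigs, without a test.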
